A study of Mus musculus with 2 samples.

Results

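Sterol and fatty acid synthesis genes were followed through the cell classes of newborn mouse kidney with and without folliculin. The set holds 31 of the 55488 gene rows in the deposited matrices and was taken by gene symbol, with no threshold on a measured value. It was read in 3 groups: 18 enzymes of the sterol arm, 8 enzymes of the fatty acid arm and 5 regulators. Every one of the 31 had at least 1 UMI in a named class of each library (a UMI, unique molecular identifier, marks 1 captured RNA molecule).

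Animal cells make cholesterol from acetyl-CoA through mevalonate, squalene and lanosterol, and they make fatty acids from the same starting compound through malonyl-CoA. The transcription factors SREBP1 (Srebf1) and SREBP2 (Srebf2) switch on these genes when sterol in the endoplasmic reticulum is low. SCAP (Scap) then carries them to the Golgi for cleavage, and INSIG1 (Insig1) retains SCAP in the endoplasmic reticulum when sterol is plentiful. STARD4 (Stard4) moves sterol between membranes inside the cell. In the kidney, the proximal tubule is the segment with the heaviest reabsorptive load and draws its energy largely from fatty acid oxidation.

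Kidneys were taken at postnatal day 0 and dissociated cells were sequenced on a droplet platform with 3′ chemistry, although the tissue label of both samples reads embryonic kidney. The library labelled Flcn WT came from Six2Cre mice with 1 floxed and 1 intact Flcn allele, so this control carried the Cre and was heterozygous for the floxed allele. The library labelled Flcn KO came from Six2Cre mice with both Flcn alleles floxed. Flcn encodes folliculin, a tumour suppressor that restrains the transcription factors TFEB and TFE3 at the lysosome. Six2-Cre acts in nephron progenitors and is inherited by the nephron epithelium they form, so ureteric, stromal, vascular and immune cells are not its targets. The number of animals per library is not given in the sources used here.

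Each genotype is represented by 1 library, so differences between them could not be set against replicates, no test across samples was possible, and every 95% interval covers counting error alone. The libraries held 147390790 UMIs in 5572 WT barcodes and 149679281 UMIs in 5991 KO barcodes, of which 4000 and 4798 cells were kept at medians of 20967.5 and 18458 UMIs. The libraries shared 5 barcodes, 1 of them among kept cells. Flcn itself was counted at 22.8 CPM in WT and 13.1 CPM in KO proximal tubule, at 7.22 and 9.43 CPM in loop of Henle, at 8.19 and 8.93 CPM in nephron progenitors, and at 20.97 and 36.2 CPM in podocytes, a ratio of 1.73 (1.32 to 2.26) against the direction of the KO label. CPM is the UMI sum over the cells of a class, scaled to a fixed total of nuclear-encoded UMIs, the same in both libraries. Where the floxed segment lies relative to the 3′ tags is not given in the sources used here, so these counts do not check the labels. Marker genes defined 6 classes of the Six2 lineage and 5 outside it. A stroma-like cluster stayed unnamed because Cdkn1c, a gene of the podocyte list, was among its leading genes, and it held 2.65% of WT and 9.17% of KO cells. A cluster with proximal tubule genes in the lead but a median of 2607 UMIs and only 1 detected marker of its closest list, erythroid, also stayed unnamed, with 3.70% of WT and 1.27% of KO cells.

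Upstream sequences were compared to describe letters that the members share, and their part in the differences between libraries was not tested. RefSeq windows on GRCm38.p6 covered 24 of the 31 genes, and the 250 bases before each annotated start were searched on both strands. CCAAT, the core letters of the NF-Y box that accompanies SREBP sites, stood in 14 of 15 sterol arm genes, in 1 of 5 fatty acid arm genes and in 3 of 4 regulators, against 37.5% of 27025 genes. GGGCGG, the GC box read by Sp factors, stood in 14 of 15 sterol arm and 2 of 5 fatty acid arm genes, against 35.4% of all genes. TCACNCCAC, a form of the sterol regulatory element, was found in Hmgcs1 alone among the 24, against 1.22% of all genes. The E-box CACGTG, the core letters read by TFEB and other factors of its class, was found in Dhcr7, Hsd17b7, Sc5d, Insig1 and Scap. That is 20.8% of the 24 against 6.86% of all genes. CLEAR, a longer element with this E-box at its centre, was searched for too and was found in 0 of the 24. It stood in 0.27% of all genes, a share too low for its absence from 24 genes to be informative. Fdps, Fdft1, Sqle, Scd1, Scd2, Fads1 and Stard4 had no window. A match is a description of letters and not a shown binding site. Parts of some windows overlap annotated exons. CCAAT was absent from the longest exon-free stretches of Cyp51, Dhcr7, Idi1, Msmo1 and Tm7sf2, as was the E-box from those of Dhcr7 and Scap. The other genes were not matched to the members on expression level. The 5 windows below show CCAAT or its reverse complement, the sterol regulatory element and the E-box in capitals, where present. The GC box is not marked, and CCAAT stands in all 5 windows, that of Fasn included. Each is written 5′ to 3′ on the strand of its gene and ends before the first annotated exon.
Hmgcs1: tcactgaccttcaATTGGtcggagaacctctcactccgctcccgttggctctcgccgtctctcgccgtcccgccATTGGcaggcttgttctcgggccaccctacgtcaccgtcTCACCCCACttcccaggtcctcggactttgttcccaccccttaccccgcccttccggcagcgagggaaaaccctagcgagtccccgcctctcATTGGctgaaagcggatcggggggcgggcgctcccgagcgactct
Mvd: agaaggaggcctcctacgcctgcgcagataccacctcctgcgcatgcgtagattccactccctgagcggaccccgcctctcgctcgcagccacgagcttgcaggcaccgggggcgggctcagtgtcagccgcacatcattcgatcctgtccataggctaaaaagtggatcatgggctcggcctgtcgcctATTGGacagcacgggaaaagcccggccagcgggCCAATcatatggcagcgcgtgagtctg
Ebp: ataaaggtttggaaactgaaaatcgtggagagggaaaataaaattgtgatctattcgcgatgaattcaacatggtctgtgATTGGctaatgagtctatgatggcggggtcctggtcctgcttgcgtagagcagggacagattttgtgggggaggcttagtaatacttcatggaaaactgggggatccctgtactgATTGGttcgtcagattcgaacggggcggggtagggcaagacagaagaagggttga
Insig1: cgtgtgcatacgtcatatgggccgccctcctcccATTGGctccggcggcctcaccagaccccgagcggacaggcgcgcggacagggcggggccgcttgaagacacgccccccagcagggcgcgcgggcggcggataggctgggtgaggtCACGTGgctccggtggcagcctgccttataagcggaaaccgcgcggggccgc
Fasn: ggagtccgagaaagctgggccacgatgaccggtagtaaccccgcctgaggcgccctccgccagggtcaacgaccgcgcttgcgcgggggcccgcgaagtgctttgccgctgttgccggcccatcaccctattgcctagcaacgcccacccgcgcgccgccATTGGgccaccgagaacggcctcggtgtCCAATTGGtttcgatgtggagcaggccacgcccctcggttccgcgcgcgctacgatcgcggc

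The Hmgcs1 window (chr13:119690101-119690350, plus strand) held the sterol regulatory element at position -137 and 3 reversed CCAAT boxes at -237, -176 and -45, counted back from the annotated start. The Mvd window (chr8:122443423-122443672, minus strand) held 1 box in each orientation, at -60 and -27. The Ebp window (chrX:8193513-8193762, minus strand) held 2 reversed boxes at -170 and -55. In Insig1 (chr5:28071162-28071362, plus strand) a box at -216 was accompanied by the E-box at -101. Fasn (chr11:120824548-120824797, minus strand), the fatty acid synthase, was the fatty acid arm gene with the box, at -90, -62 and -59, the last 2 overlapping on opposite strands. All coordinates are on GRCm38.

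In the WT library the sterol arm was highest in proximal tubule cells, where its summed level was 1443 CPM. The next class, early nephron, had 734 CPM. Ureteric bud and collecting duct at 689 CPM, loop of Henle at 688 CPM and distal tubule at 667 CPM had overlapping counting intervals. Nephron progenitors followed at 637 CPM, and stroma and immune cells were lowest at 236 and 228 CPM. Hmgcs1, which condenses acetyl-CoA units into the precursor of mevalonate, gave 44.5% of the sterol arm UMIs of WT proximal tubule. Fatty acid synthesis was ordered differently. Nephron progenitors at 722 CPM and distal tubule at 705 CPM were highest and overlapped, and proximal tubule at 419 CPM lay beside loop of Henle at 421 CPM. In the KO library proximal tubule was still the highest class for the sterol arm at 1067 CPM, with distal tubule next at 936 CPM.

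**Figure D1:**
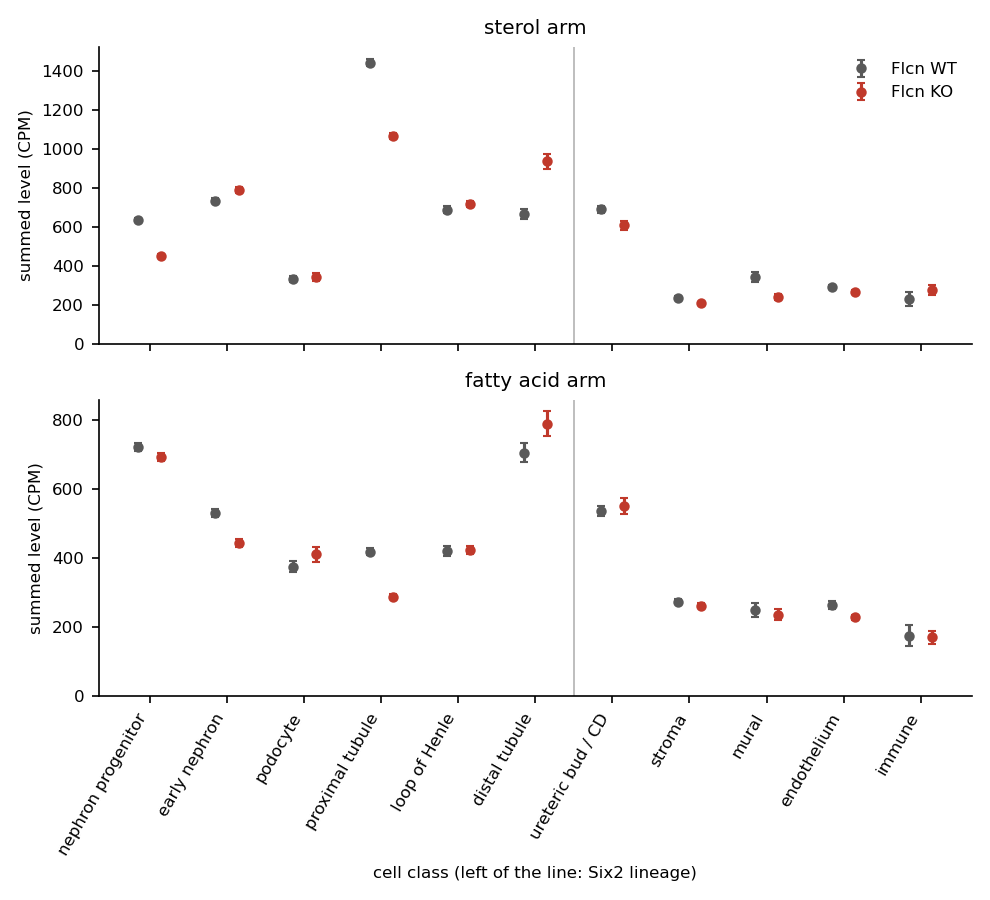
Summed level of the sterol arm (18 genes, top) and the fatty acid arm (8 genes, bottom) in CPM for 11 cell classes, grey for the Flcn WT and red for the Flcn KO library, with exact Poisson 95% intervals as bars. The sterol arm is lower in KO proximal tubule (1443 against 1067 CPM) and nephron progenitor (637 against 452 CPM) and higher in KO distal tubule (667 against 936 CPM).

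In proximal tubule cells most sterol synthesis genes were lower in the KO library. The sterol arm was 1443 CPM in WT (27921 UMIs, 425 cells) and 1067 CPM in KO (18782 UMIs, 347 cells), a ratio of 0.739 (0.726 to 0.753). Of its 18 genes 16 were lower, against 50.1% of all genes with at least 10 UMIs in this class, and 2 were higher, against 49.9%. At least 1.5-fold lower were 9 of 18, against 15.3% of all genes, and none was at least 1.5-fold higher, against 14.9%. The median log2 ratio was -0.62, beside 0.00 over all 18375 genes.

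Enzymes at several steps of the route were among the lower ones. Cyp51 (ENSMUSG00000001467, chromosome 5, 4081145 to 4104746), the lanosterol demethylase, was 167 CPM in WT and 80.3 CPM in KO, a ratio of 0.481 (0.452 to 0.512). Idi1 (ENSMUSG00000058258, chromosome 13, 8885501 to 8892451), which isomerises the isoprenoid unit, was 35.9 and 17.8 CPM, a ratio of 0.497 (0.434 to 0.569). Mvd (chromosome 8, 122433601 to 122443422), the mevalonate diphosphate decarboxylase, was 31.9 and 16.3 CPM, a ratio of 0.511 (0.443 to 0.589). The WT and KO counting intervals did not overlap for any of these 3 genes, which follows from how they were picked. They were named because their ratio intervals lay farthest from 1, and the share of all genes with such intervals is not given here. Ebp (chromosome X, 8185329 to 8193512), a sterol isomerase late in the route, was 96.0 and 50.9 CPM, a ratio of 0.530 (0.489 to 0.575). Dhcr7, the reductase that makes cholesterol in the last step, was 11.8 and 6.59 CPM, a ratio of 0.559. Tm7sf2, a sterol reductase, and Nsdhl, a sterol dehydrogenase, had ratios of 0.515 and 0.555. Hmgcs1 differed less, with 642 CPM in WT and 533 CPM in KO, a ratio of 0.831 (0.809 to 0.853), and it carries much of the arm total: without it the log2 ratio of the total was -0.59 in place of -0.44.

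A few enzymes did not share this direction. Fdps (chromosome 3, 89093588 to 89101959), farnesyl diphosphate synthase, was 25.7 CPM in WT and 37.3 CPM in KO, a ratio of 1.45 (1.29 to 1.63). Mvk, mevalonate kinase, was 10.9 CPM in both libraries. Sqle, squalene epoxidase, was 74.5 and 70.6 CPM with an interval of the ratio that included 1 (0.878 to 1.02). Fdft1, which joins 2 farnesyl units into squalene just after the step of Fdps, was 37.0 and 23.1 CPM, a ratio of 0.623. Neighbouring steps of the route thus had opposite directions.

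**Figure D2:**
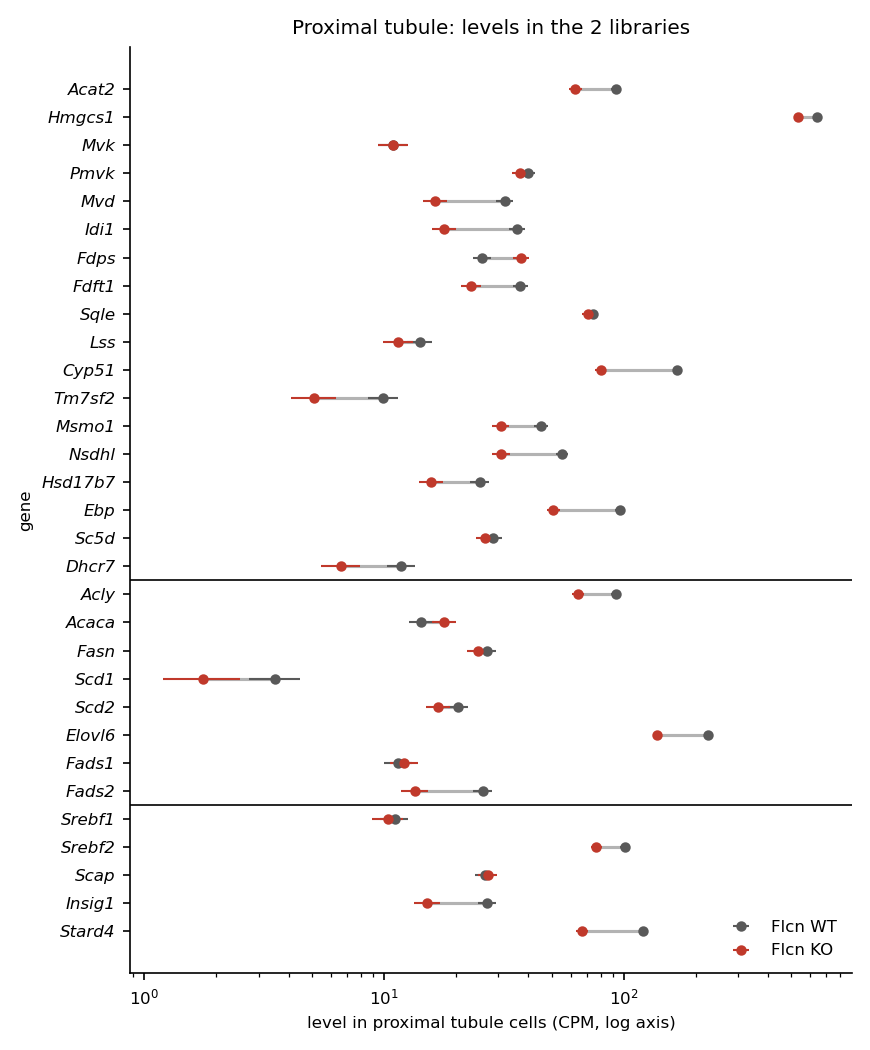
Level of each of the 31 genes in proximal tubule cells in CPM on a log axis, grey for Flcn WT and red for Flcn KO, with exact Poisson 95% intervals and a grey line joining the libraries; horizontal rules part the sterol arm, the fatty acid arm and the regulators. Most red points lie left of the grey ones, as for Cyp51 (167 and 80.3 CPM), while Fdps (25.7 and 37.3 CPM) lies the other way.

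The fatty acid arm was also lower in KO proximal tubule, at 419 CPM in WT (8111 UMIs) and 289 CPM in KO (5089 UMIs), a ratio of 0.690 (0.666 to 0.714). Of its 8 genes 6 were lower, 3 of them at least 1.5-fold, beside the background shares above, and the median log2 ratio was -0.40. Elovl6, which elongates palmitate, gave 53.5% of the arm's UMIs in WT and 47.7% in KO and was 224 CPM in WT and 138 CPM in KO. Fads2 (chromosome 19, 10062765 to 10101746), a desaturase of polyunsaturated fatty acids, was 25.8 and 13.4 CPM, a ratio of 0.520 (0.443 to 0.608). Acaca, the carboxylase that makes malonyl-CoA, was 14.3 CPM in WT and 17.8 CPM in KO, a ratio of 1.25 (1.06 to 1.47), and Fads1 was 11.4 and 12.2 CPM. The arm therefore held genes on both sides of equality, and without Elovl6 its log2 ratio was -0.37 in place of -0.54.

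Among the regulators, Insig1 and Stard4 were lower in KO proximal tubule and Scap and Srebf1 differed little. Insig1 was 26.8 CPM in WT and 15.1 CPM in KO, a ratio of 0.563 (0.484 to 0.654). Stard4 (ENSMUSG00000024378) was 120 and 67.0 CPM, a ratio of 0.558 (0.520 to 0.599). Srebf2, the SREBP chiefly tied to sterol genes, was 101 and 76.7 CPM, a ratio of 0.761 (0.710 to 0.817). Srebf1 was 11.1 and 10.3 CPM and Scap was 26.3 and 27.1 CPM, with intervals of the ratio that included 1.

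The share of cells with a UMI was compared after each cell was thinned to 3000 UMIs. Cyp51 was then seen in 35.9% of 423 WT and 19.5% of 343 KO proximal tubule cells (exact Clopper-Pearson lower bounds 31.4% and 15.5%), and in 93.4% and 87.6% of cells before thinning. Hmgcs1 was seen in 72.8% and 71.4% of the thinned cells. No class of this kidney should lack these enzymes altogether, so no class served as a background for free RNA, and its part in these shares was not tested.

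Other gene groups differed in the same cells. The summed proximal tubule markers were 20046 CPM in WT and 11263 CPM in KO, with all 16 detected in each. The 10-gene tubule injury list was 1850 and 2785 CPM, with 9 of 10 genes at least 1.5-fold higher, led by Nupr1 (2.02 and 122 CPM), Cldn4 (1.24 and 60.9 CPM) and Havcr1 (5.63 and 128 CPM). The 12 immune markers summed to 71.5 and 191 CPM, with Laptm5 at 0 in WT and none at 0 in KO. The 10-gene proliferation list was 43.5 and 29.8 CPM, and the 7 erythroid genes summed to 144 and 11.3 CPM, with 6 detected in each. Of the class's 2 clusters, number 18 held 158 WT and 202 KO cells and number 22 held 267 and 145, so different clusters held most of the class in the 2 libraries. The sterol arm ratio was 0.712 (0.691 to 0.733) within cluster 18 and 0.849 (0.828 to 0.870) within cluster 22, with median log2 ratios of -0.58 and -0.49. For fatty acid synthesis the ratios were 0.696 and 0.763. Without cells that had a UMI of Havcr1, Krt19 or Plaur the log2 ratio of the sterol total was -0.28, at Leiden resolution 2 it was -0.25 and in cells thinned to 3000 UMIs it was -0.31, beside -0.44. Cyp51, Idi1, Mvd, Ebp, Fads2, Stard4 and Insig1 were lower in all 14 alternatives but, Fads2 apart, not always by 1.5-fold. Srebf1 and Scap, near level, changed sign in 1 and 5 of them. Within cluster 22 the log2 ratios of Cyp51, Mvd, Stard4 and Insig1 were -0.56, -0.50, -0.49 and -0.26, under that size, and those of Idi1 and Ebp were -0.51 and -0.41 in thinned cells. Stard4 at -0.36 and Insig1 at -0.28 were also under it without cells with an injury UMI. The part of injury, immune and erythroid RNA and cluster makeup in the remaining difference was not tested.

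In nephron progenitors the sterol arm was lower in KO while the fatty acid arm was nearly level. The sterol arm was 637 CPM in WT (15317 UMIs, 747 cells) and 452 CPM in KO (8446 UMIs, 671 cells), a ratio of 0.709 (0.690 to 0.728). Of 18 genes 17 were lower, against 49.2% of all genes, and 5 of them were at least 1.5-fold lower, against 10.4%; 1 was higher by the raw ratio, against 50.8%, and none was at least 1.5-fold higher, against 8.66%. The median log2 ratio was -0.46, beside 0.01 over 20651 genes. The fatty acid arm was 722 and 694 CPM, a ratio of 0.961 (0.939 to 0.983), with none of its 8 genes at least 1.5-fold different.

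Hmgcs1 (ENSMUSG00000093930, chromosome 13, 119690379 to 119708260) had the most UMIs of the sterol arm in progenitors and was 125 CPM in WT and 73.6 CPM in KO, a ratio of 0.589 (0.553 to 0.628). Idi1 was 45.9 and 26.3 CPM, a ratio of 0.573 (0.514 to 0.638). Sqle (chromosome 15, 59315077 to 59331192) was 40.5 and 25.6 CPM, a ratio of 0.631 (0.564 to 0.705). Squalene epoxidase was thus lower in progenitors, whereas it was nearly level in proximal tubule. Cyp51 was 79.5 and 52.2 CPM, a ratio of 0.657 (0.608 to 0.710), and Fdps was 45.6 and 30.3 CPM, a ratio of 0.665 (0.600 to 0.737). Fdps therefore had opposite directions in progenitors and proximal tubule. Mvd was 11.3 CPM in each library and Ebp was 24.7 and 24.5 CPM, although both were among the lowest ratios of proximal tubule.

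Of the regulators in progenitors, 4 were lower in KO and Scap was higher. Stard4 was 22.7 CPM in WT and 13.7 CPM in KO, a ratio of 0.604 (0.519 to 0.702). Insig1 was 52.2 and 37.6 CPM, a ratio of 0.721 (0.657 to 0.792), and Srebf2 was 126 and 95.4 CPM, a ratio of 0.758 (0.715 to 0.804). Srebf1 was 14.9 and 11.9 CPM, a ratio of 0.797 (0.671 to 0.945), although the log2 ratio of Srebf1 was 0.20 in thinned cells, beside -0.33. Scap was 23.1 and 27.0 CPM, a ratio of 1.17 (1.03 to 1.32).

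The progenitor class had 3 clusters, and the sterol ratio was under 1 in each. It was 0.808 in cluster 0 (321 WT and 265 KO cells), 0.655 in cluster 9 (180 and 229) and 0.734 in the proliferating cluster 11 (246 and 177). Cluster 11 had the highest sterol level, 822 CPM in WT and 604 CPM in KO. Wnt4, of the early nephron list, led its genes, and at resolution 0.5 a cluster led by Wnt4 was named early nephron. The part of cluster makeup in the class ratio was not tested. The proliferation list was nearly level in the class as a whole, at 1420 CPM in WT and 1375 CPM in KO, but its ratio was 0.617 in cluster 0, 1.42 in cluster 9 and 1.18 in cluster 11, and its part in the sterol difference was not tested. Progenitor markers were 2458 and 2374 CPM. Immune markers were 8.94 and 33.0 CPM with all 12 detected in each library, and erythroid genes were 253 and 103 CPM with Slc4a1 at 0 in KO. Cells thinned to 3000 UMIs gave a log2 ratio of the sterol total of -0.32, beside -0.50 at full depth. The median depth of the class was 25418 UMIs in WT and 22369 in KO.

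**Figure D3:**
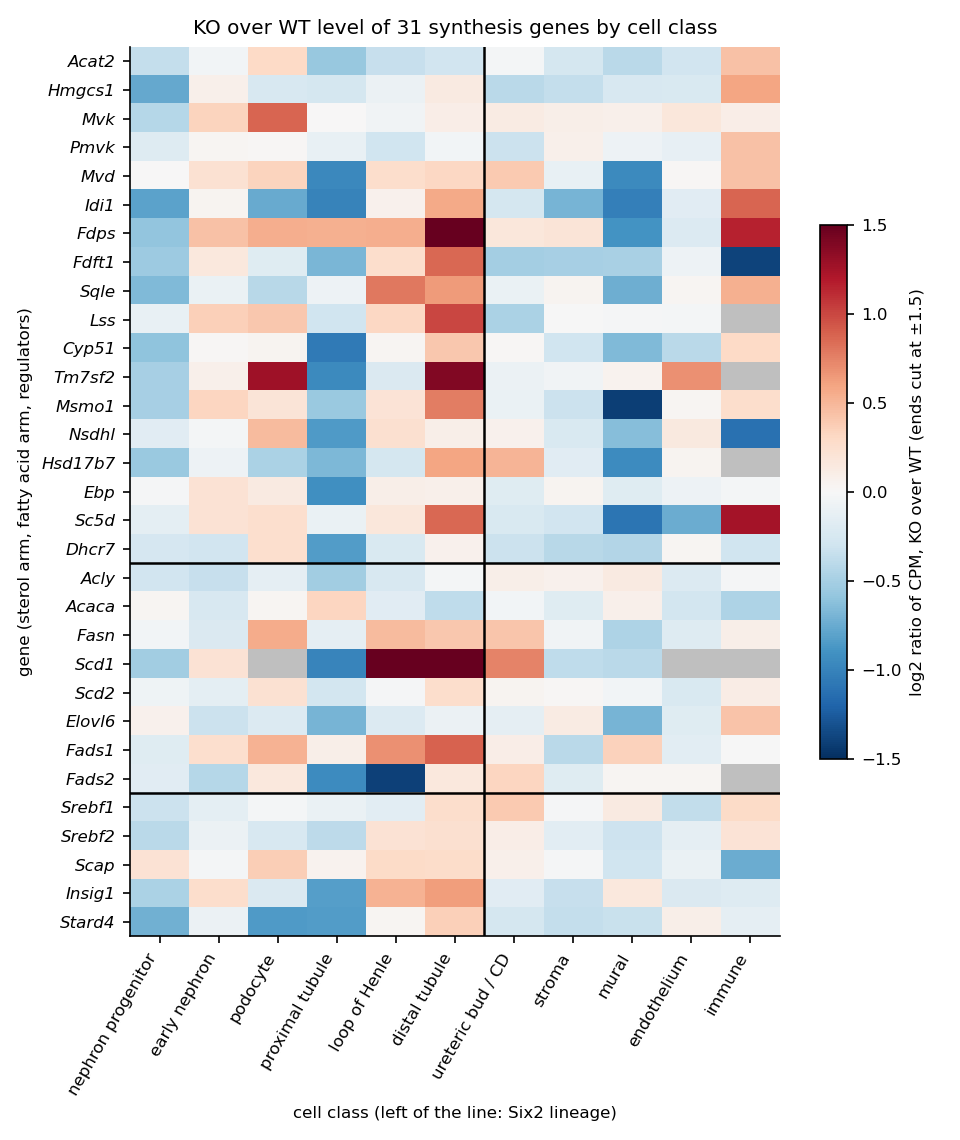
Log2 ratio of CPM, KO over WT, of the 31 genes (rows, with rules between the sterol arm, the fatty acid arm and the regulators) in 11 cell classes (columns, Six2 lineage left of the vertical rule), blue for lower and red for higher in KO, grey where a gene had under 10 UMIs. Nephron progenitor and proximal tubule are mostly blue, distal tubule is mostly red, and mural cells, outside the Six2 lineage, are blue for much of the sterol arm.

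In loop of Henle cells, the segment that forms cysts in this model according to the series title, the sums of both arms were close to level. The sterol arm was 688 CPM in WT (160 cells) and 718 CPM in KO (203 cells), a ratio of 1.044 (1.01 to 1.079), and the fatty acid arm was 421 and 424 CPM, a ratio of 1.01 (0.964 to 1.05). The sterol median log2 ratio was 0.07, beside -0.05 over all genes, with 11 genes higher, against 45.8% of all genes, and 7 lower, against 54.2%. At least 1.5-fold different among the 31 genes were Sqle, Scd1, Fads1 and Fads2, that is 3 higher, against 13.1% of all genes, and 1 lower, against 19.1%.

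Scd1 and Fads2, both desaturases, had the largest differences in loop of Henle and were chosen after their values were seen. Scd1 (ENSMUSG00000037071, chromosome 19, 44394455 to 44407879), which introduces the double bond into stearate and palmitate, had 29 UMIs in WT (3.27 CPM) and 284 in KO (24.8 CPM), a ratio of 7.58 (5.16 to 11.5). It was seen in 23 of 160 WT cells (14.4%) and 98 of 203 KO cells (48.3%). The KO cell with the most gave 4.58% of the UMIs. After thinning to 3000 UMIs it was seen in 4 of 151 WT and 10 of 199 KO cells, and the log2 ratio of its sum was 1.18. In endothelium, taken as a class with little of the transcript, 0.755% of WT and 0.242% of KO cells had a Scd1 UMI, at median depths of 23711 and 26123.5 UMIs against 42490.5 and 50701 in loop of Henle. Fads2 was 7.67 and 2.88 CPM in loop of Henle (68 and 33 UMIs), a ratio of 0.376 (0.240 to 0.577). Scd2, the paralog of Scd1, gave the most UMIs of the fatty acid arm in this class and was 139 and 138 CPM. Scd1 and Scd2 both lie on chromosome 19, and how reads shared by them were counted is not given in the sources used here.

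Insig1 was the regulator with the largest ratio in loop of Henle, at 23.8 CPM in WT and 34.3 CPM in KO, a ratio of 1.44 (1.22 to 1.71). Srebf2 was 88.4 and 102 CPM, Scap was 26.4 and 32.3 CPM, and Stard4 was 25.3 and 25.8 CPM. Srebf1 was 27.8 and 24.8 CPM with an interval that included 1. Loop of Henle markers themselves were 13650 CPM in WT and 13927 CPM in KO, the proliferation list was 536 and 359 CPM, and the podocyte list was 409 and 1127 CPM with all 12 genes detected in each. Immune markers were 36.4 CPM in each library, with 8 of 12 detected in WT and 12 in KO. Their part in the differences of Scd1, Fads2 and Insig1 was not tested.

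In distal tubule cells most members were higher in KO. The sterol arm was 667 CPM in WT (2472 UMIs, 99 cells) and 936 CPM in KO (2296 UMIs, 60 cells), a ratio of 1.40 (1.32 to 1.48). Of its 18 genes 16 were higher, against 52.4% of all genes, and 8 were at least 1.5-fold higher, against 15.8%; 2 were lower, against 47.6%, and none at least 1.5-fold lower, against 14.3%. The median log2 ratio was 0.49, beside 0.03 over 14418 genes. Without the cell with the most UMIs of the item in each library, the sterol arm ratio was 1.43. On that measure Mvd (0.938), Mvk (0.953) and Dhcr7 (0.989) fell under 1, while every other sterol gene kept its direction. For Mvd, 1 KO cell gave 34.4% of the KO UMIs. The fatty acid arm was 705 and 789 CPM, a ratio of 1.12 (1.05 to 1.19).

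Fdps had the largest sterol arm ratio of the distal tubule, at 39.1 CPM in WT (145 UMIs) and 120 CPM in KO (295 UMIs), a ratio of 3.07 (2.51 to 3.77). Some enzymes on its sterol side were higher too, although Nsdhl, Ebp and Dhcr7 were nearly level. Fdft1 (chromosome 14, 63145150 to 63179578) was 35.4 and 64.4 CPM, a ratio of 1.82 (1.44 to 2.31). Msmo1 (chromosome 8, 64718139 to 64733792), the methylsterol monooxygenase, was 62.3 and 106 CPM, a ratio of 1.70 (1.42 to 2.04). Sc5d (chromosome 9, 42251595 to 42264256), a sterol desaturase, was 19.97 and 36.3 CPM, a ratio of 1.82 (1.32 to 2.51). Of the fatty acid arm, Fads1 (chromosome 19, 10182888 to 10196877) was 15.4 and 28.5 CPM, a ratio of 1.85 (1.29 to 2.68). Scd1 rested on 8 WT and 28 KO UMIs, a ratio of 5.28 (2.35 to 13.4), with 25% of the KO UMIs in 1 cell, and as a mean over cells its log2 ratio was -0.19. All 5 regulators were higher in KO by the raw ratio: Insig1 was 26.2 and 40.3 CPM (1.54, 1.15 to 2.06), and Stard4 was 65.3 and 83.9 CPM (1.29, 1.06 to 1.55). Srebf2 was 99.1 and 116.5 CPM. Srebf1 was 25.1 and 30.2 CPM and Scap was 28.3 and 34.2 CPM, both with intervals of the ratio that included 1.

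The distal tubule cells of the libraries differed in more than these genes. Their median depth was 14766 UMIs in WT and 38647.5 in KO. Distal tubule markers summed to 6907 CPM in WT and 2088 CPM in KO, with Pvalb at 0 in KO. Loop of Henle markers in the same cells went the other way, at 1773 CPM in WT and 2505 CPM in KO. The tubule injury list was 2625 and 1568 CPM. Podocyte-list genes were 271 and 1365 CPM with all 12 detected in each. Immune markers were 30.2 CPM in WT (6 of 12 detected) and 278 CPM in KO (10 of 12 detected). At 0 were C1qa, C1qc, Tyrobp, Laptm5, Lyz2 and S100a8 in WT, and C1qb and C1qc in KO. Erythroid genes were 126 and 418 CPM, and the proliferation list was 527 and 202 CPM. The part of these differences in the higher sterol and fatty acid levels was not tested.

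Early nephron cells and podocytes showed small and mixed differences. In early nephron the sterol arm was 734 CPM in WT and 790 CPM in KO, a ratio of 1.077 (1.05 to 1.11), with 13 of 18 genes higher, against 46.0% of all genes, and 5 lower, against 54.0%. The direction of that total did not hold throughout: the log2 ratio of the sterol arm total in early nephron was 0.11, and it was -0.16 at a mitochondrial limit of 10% and -0.07 at resolution 0.5. The fatty acid arm was 531 and 445 CPM, a ratio of 0.839 (0.812 to 0.866). No member was at least 1.5-fold different there, against 8.86% of all genes higher and 10.7% lower. In podocytes the ratios were 1.04 (0.964 to 1.12) for the sterol arm and 1.09 (1.02 to 1.17) for the fatty acid arm. Of the 18 sterol genes 13 were higher in podocytes, against 54.4% of all genes, and 5 lower, against 45.6%, with 2 members at least 1.5-fold higher, against 13.1%, and 2 lower, against 12.1%. Stard4 was among the lower ones, with 60 UMIs in WT and 20 in KO, a ratio of 0.547 (0.312 to 0.920). Insig1 was 28.8 and 34.6 CPM in early nephron, a ratio of 1.204 (1.06 to 1.37), and 18.4 and 15.7 CPM in podocytes. The log2 ratio of Insig1 in early nephron, 0.27, was under 0 in 3 of 11 settings, the lowest -0.18 with doublets kept. Other lists differed in these classes too. In early nephron the injury list was 395 and 556 CPM, with 6 genes at least 1.5-fold higher, the podocyte list was 369 and 624 CPM, and proximal tubule markers were 1224 and 1858 CPM. In podocytes their own markers were 50455 and 33890 CPM, and erythroid genes were 13.1 and 111 CPM. The part of these in the member values was not tested.

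Classes outside the Six2 lineage gave the scale of differences between these 2 libraries where the Cre is not expected to act. In the ureteric bud and collecting duct the sterol arm was 689 CPM in WT and 607 CPM in KO, a ratio of 0.881 (0.840 to 0.923), and the fatty acid arm ratio was 1.03 with an interval that included 1. Of 18 sterol genes 6 were higher, against 53.2% of all genes, and 12 lower, against 46.8%. Scd1 alone was at least 1.5-fold higher there, against 8.24% of all genes, and none was lower, against 9.64%. This Scd1 ratio rested on 8 WT and 6 KO UMIs, 3 of the latter in 1 cell. Without the top cell of each library it was 0.966. Stroma had sterol and fatty acid ratios of 0.886 and 0.958, with 5 sterol genes higher, against 51.7%, and 13 lower, against 48.3%. It had 1 member at least 1.5-fold lower (Idi1), against 6.55%, and none higher, against 10.2%. Endothelium had ratios of 0.920 and 0.867, with 8 sterol genes higher, against 49.5%, and 10 lower, against 50.5%. It had 1 member at least 1.5-fold higher (Tm7sf2), against 9.26%, and 1 lower (Sc5d), against 6.71%.

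Mural cells, the renin cells, pericytes and smooth muscle of the vessels, had a sterol ratio as low as that of the progenitors. The sterol arm was 343 CPM in WT (776 UMIs, 120 cells) and 241 CPM in KO (851 UMIs, 237 cells), a ratio of 0.702 (0.636 to 0.775). In mural cells 15 of 18 genes were lower, against 49.6% of all genes, and 3 higher, against 50.4%, and 9 of 18 genes were at least 1.5-fold lower, against 10.1% of all genes. None was at least 1.5-fold higher, against 11.2%. Msmo1 was 31.8 and 11.9 CPM, a ratio of 0.373 (0.249 to 0.554), and Idi1 was 18.6 and 9.05 CPM, a ratio of 0.488 (0.298 to 0.791). The fatty acid arm was 250 and 237 CPM, a ratio of 0.9495 with an interval that included 1 (0.852 to 1.06). Mural markers were 18555 CPM in WT and 13334 CPM in KO, the stroma list was 1353 and 1760 CPM, the proliferation list was 1195 and 961 CPM and the erythroid list was 24.3 and 94.2 CPM. Their part in the lower sterol level was not tested.

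In immune cells counts were low, with 168 sterol arm UMIs in 72 WT cells and 532 in 196 KO cells. The sterol arm was 228 and 275 CPM, a ratio of 1.21 (1.01 to 1.44), and the fatty acid arm was 175 and 171 CPM. Of the 15 sterol genes with at least 10 UMIs, 11 were higher, against 45.7% of all genes, and 4 lower, against 54.3%. At least 1.5-fold, 7 were at least 1.5-fold higher, against 13.4% of all genes, and 2 lower, against 15.6%. Sc5d had 6 and 40 UMIs, a ratio of 2.54 (1.07 to 7.32), and Fdft1 had 11 in each library, a ratio of 0.381 (0.150 to 0.968). The intervals of Hmgcs1 (1.55), Nsdhl (0.465), Fdps (2.54) and Idi1 (1.98) included 1, so at this depth their differences were not detectable. The immune class joined a macrophage-type cluster, 53 WT and 126 KO cells, and a cluster led by neutrophil genes, 19 and 70 cells, with sterol ratios of 1.25 (1.04 to 1.52) and 0.964 (0.544 to 1.80).

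Each class was set against the ureteric class as an untargeted epithelium of the same libraries. The sterol log2 ratio was below the ureteric one by -0.25 (-0.33 to -0.18) in proximal tubule, by -0.31 (-0.39 to -0.23) in nephron progenitors and by -0.33 (-0.48 to -0.17) in mural cells. It was above it by 0.67 (0.56 to 0.78) in distal tubule, by 0.45 (0.19 to 0.71) in immune cells, by 0.29 (0.21 to 0.37) in early nephron, by 0.25 (0.16 to 0.33) in loop of Henle and by 0.24 (0.11 to 0.37) in podocytes. In stroma and endothelium the intervals included 0. Classes outside the lineage thus lay on both sides, as did those within it. For the fatty acid arm the difference was -0.57 (-0.66 to -0.49) in proximal tubule and -0.29 (-0.38 to -0.21) in early nephron, beside -0.24 (-0.35 to -0.14) in endothelium, and it was -0.03 (-0.12 to 0.07) in loop of Henle. These comparisons share the ureteric cells, and their intervals cover counting error only. The log2 ratio of the sterol arm total, ureteric bud and collecting duct, was -0.18 and ranged from -0.30 to -0.00097 over 12 alternative settings, reaching the latter without cells with a proliferation UMI, and its median changed sign in 2 of 12.

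Related lipid genes, from lists taken by pathway, did not all share the direction of the members. Of 7 genes that sense, store or export sterol, 4 were at least 1.5-fold higher in KO proximal tubule, against 14.9% of all genes there, and the median log2 ratio was 1.002. Abca1, the exporter of cholesterol to apolipoprotein, was 9.97 CPM in WT and 41.9 CPM in KO, a ratio of 4.20 (3.58 to 4.94). Soat1, which esterifies cholesterol for storage, was 18.1 and 41.9 CPM, a ratio of 2.31 (2.03 to 2.63), and Abcg1 rested on 16 and 34 UMIs. The same list had a median of 0.58 in nephron progenitors, where Abca1 (1.67), Npc2 (1.74) and Soat1 (1.60) led it, and of 0.94 in distal tubule, where Soat1 was 94.5 and 297 CPM. It was 0.73 in podocytes, 0.32 in early nephron and 0.31 in loop of Henle. Outside the lineage its medians were 0.05 in the ureteric class, 0.08 in stroma, 0.43 in mural cells, above early nephron and loop of Henle, and it was -0.01 in endothelium and -0.33 in immune cells. Npc2, the lysosomal protein that hands cholesterol out of the lysosome, was looked at across classes after its values were seen. Its ratio lay between 1.68 and 2.33 in the 6 Six2 classes, with 2.003 in proximal tubule and 1.68 in loop of Henle. In the 5 outside classes it was 1.03 in the ureteric class, 1.06 in stroma, 1.11 in mural cells, 1.003 in endothelium and 0.912 in immune cells, so the 2 sets of classes did not overlap. Of 9635 genes with at least 10 UMIs in every class, 242 (2.51%) had all 6 Six2 classes above all 5 others, and 59 (0.612%) had them all below. None of the 26 members counted in every class separated the classes in either way.

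**Figure D4:**
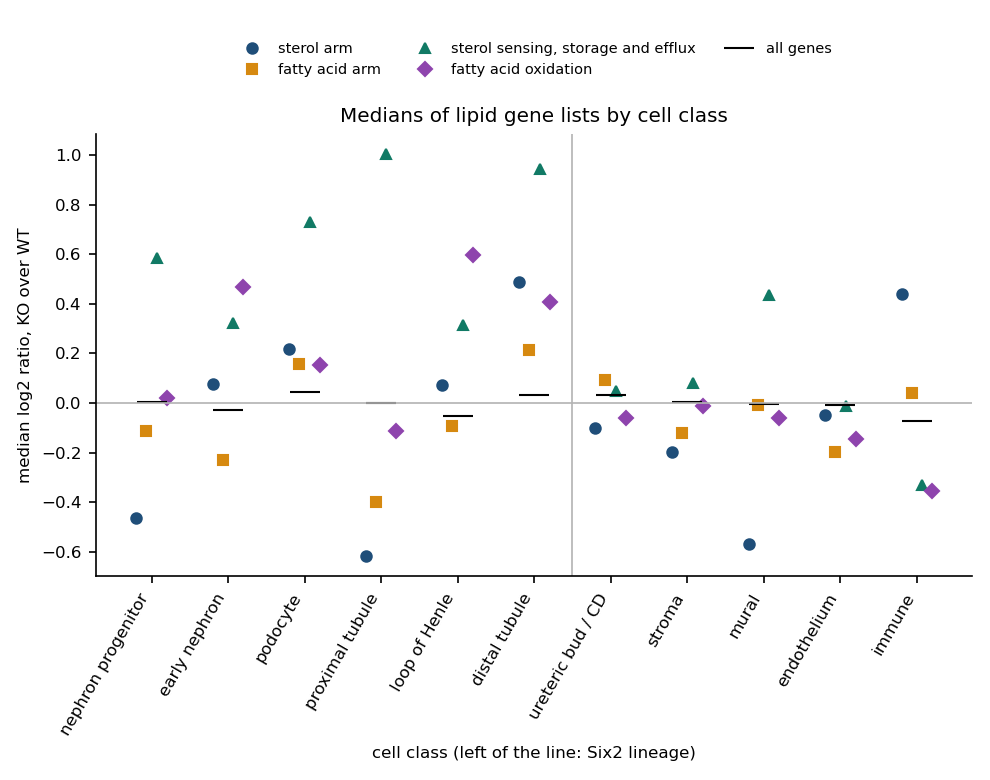
Median log2 ratio, KO over WT, of 4 lipid gene lists in 11 cell classes (Six2 lineage left of the vertical line), with the median of all genes as a black dash. In proximal tubule the sterol arm lies at -0.62 and the sterol sensing, storage and efflux list at 1.002, and in loop of Henle fatty acid oxidation lies at 0.60.

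Fatty acid oxidation, the breakdown route, was higher in KO loop of Henle while the summed fatty acid arm was level. Within that arm 2 of 8 genes were at least 1.5-fold higher, against 13.1% of all genes, and 1 lower, against 19.1%. Of 13 oxidation genes 12 were higher in loop of Henle, against 45.8% of all genes. At least 1.5-fold higher were 7, against 13.1%, and the median log2 ratio was 0.60. Ppara, the nuclear receptor of fatty acids, was 38.4 CPM in WT and 70.5 CPM in KO, a ratio of 1.84 (1.62 to 2.09), Ppargc1a, its coactivator, was 682 and 1237 CPM, and Cpt2 of the carnitine shuttle was 43.9 and 77.0 CPM. The list was also higher in early nephron (median 0.47) and distal tubule (0.41), and in proximal tubule its median was -0.11. Of 14 further genes of fatty acid synthesis and elongation, loop of Henle had 3 at least 1.5-fold higher, against 13.1% of all genes, and 1 lower (Elovl5, 0.657), against 19.1%, counts near or under the background. The higher ones were Acacb (24.8 and 66.7 CPM), whose product malonyl-CoA restrains the carnitine shuttle, the elongase Elovl1 (72.6 and 158 CPM) and Acss2 (10.6 and 22.6 CPM), which makes acetyl-CoA from acetate. In proximal tubule Acss2 had a ratio under 1 (0.554, from 1161 and 585 UMIs), as did Acsl3 at 76.9 and 41.6 CPM, while Mid1ip1, an activator of acetyl-CoA carboxylase, was 10.8 and 29.9 CPM. The 5 other genes of SREBP processing and isoprenoid synthesis had no member at least 1.5-fold different in proximal tubule, progenitors or distal tubule. Over all genes the shares higher and lower were 14.9% and 15.3%, 8.66% and 10.4%, and 15.8% and 14.3% in these classes. With 5 genes this absence is not informative. In loop of Henle Lbr was 29.0 and 18.6 CPM, the 1 gene of the list at least 1.5-fold lower, against 19.1% of all genes.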

How the data were processed

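Single-cell RNA-seq of 2 libraries was used, 1 per group. The deposited matrices hold raw UMI counts per gene and barcode, with no normalisation. The submitters' processing notes name GRCm38 (mm10), STAR 2.7.2a, bcl2fastq 2.20.0 and Cell Ranger. Versions of the last differed, 7.0.0 in the header of the WT matrix and 7.1.0 in that of KO, and the effect of this was not tested. Whether intronic reads were counted, and against which annotation, is not given in the sources used here, so levels are compared between classes and libraries and not between genes.

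Barcodes with at least 1000 UMIs, 500 genes and at most 20% mitochondrial UMIs were kept (4187 WT, 5040 KO). Scrublet's own threshold called 3 and 2 doublets, so cells with the top scores, 187 and 242 in number, were removed at the rate expected for the loading. Cells were clustered in scanpy 1.11.5 (2000 variable genes, 40 components, 20 neighbours, Leiden resolution 1, igraph 0.11.9) without integrating the libraries. A cluster took a name from its marker list by a score of at least 0.35 with a lead of 0.05, thresholds set after seeing the data, and 372 WT and 631 KO cells stayed unnamed. Intercalated cells (42 and 14) were not compared. Names were rebuilt and may differ from the authors' own.

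UMIs were summed per class and library and divided by nuclear-encoded UMIs (CPM). Ratios carry exact conditional 95% intervals, CPM exact Poisson intervals. Log2 ratios of single genes and medians had 0.5 added to each sum, and genes needed 10 UMIs over both libraries. A fold of 1.5 was taken as a large difference. Intervals were tested on data simulated with counting error only, which cannot show how they fare with variation between cells or animals. Members and lists were chosen with earlier results of these data known. Full values are given for the 5 regulators and, in proximal tubule, progenitors, distal tubule and immune cells, for the 6 members at least 1.5-fold different whose interval bound lay farthest from 1; of other lists, at most the 3 largest differences per side and class. Alternatives used edgeR 4.0.16 (TMM) and DESeq2 1.42.0 (median of ratios) for scaling only. Python 3.11.15, numpy 2.4.6, scipy 1.17.1, pandas 2.3.3 and R 4.3.3 were used. Gene positions are from GENCODE on GRCm38.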

Additional observations from a re-analysis of the deposited data

Results flagged for a closer look

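For 9 of 31 members (29.0%) the KO over WT ratio was at least 1.5-fold, with a counting interval that did not include 1, in opposite directions in 2 classes. The same held for 2156 of 21865 genes counted in at least 2 classes (9.86%). Over genes counted in all 11 classes it held for 6 of 26 members (23.1%) and for 758 of 9635 genes (7.87%). The members were not matched to other genes on level. In no case was the difference between the classes tested. Fdps was 3.07 in distal tubule and 0.538 in mural cells, where it rested on 50 WT and 42 KO UMIs. Fdft1 was 1.82 in distal tubule and 0.381 in immune cells (11 UMIs in each library). Sqle was 1.73 in loop of Henle and 0.631 in nephron progenitors. Tm7sf2 was 2.68 in distal tubule, from 9 and 16 UMIs, and 0.515 in proximal tubule. Msmo1 was 1.70 in distal tubule and 0.373 in mural cells, and Hsd17b7 was 1.51 and 0.517 in the same classes. Sc5d was 2.54 in immune cells, from 6 and 40 UMIs, and 0.464 in mural cells. Scd1 was 7.58 in loop of Henle and 0.501 in proximal tubule. Insig1 was 1.54 in distal tubule and 0.563 in proximal tubule.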

How the results depend on the processing

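No paired analysis was possible because each group is 1 library. The sterol total kept its sign in all 12 settings in nephron progenitors and all 15 in proximal tubule, and the fatty acid total did so as well. The log2 ratio of the sterol total in progenitors (-0.50) was -0.42 at resolution 0.5, -0.41 at a mitochondrial limit of 10%, -0.42 with doublets kept, -0.32 thinned to 3000 UMIs, -0.43 without cells with a proliferation UMI, -0.43 as a mean over cells and -0.44 without Hmgcs1. In proximal tubule (-0.44) it was -0.25 at resolution 2, -0.38 at 10% mitochondrial UMIs, -0.36 with doublets kept, -0.31 thinned, -0.28 without cells with an injury UMI, -0.46 by median of ratios and -0.59 without Hmgcs1. The log2 ratio of the fatty acid arm total, nephron progenitor, (-0.058) was -0.020 at 10% mitochondrial UMIs, -0.011 without proliferation UMIs, -0.023 as a mean over cells and -0.11 without Elovl6. The log2 ratio of the fatty acid arm total, proximal tubule, (-0.54) was -0.36 at resolution 2, -0.47 with doublets kept, -0.435 without injury UMIs and -0.37 without Elovl6. Each proximal tubule cluster alone was added after seeing the data: cluster 18 gave -0.49 for sterol, and cluster 22 gave -0.24 for sterol and -0.39 for fatty acid. Scd1 in distal tubule reversed to -0.19 as a mean over cells, and Hmgcs1 in immune cells to -0.33 when thinned. The cause was not tested in these cases. The sterol total changed sign in 4 of 12 settings in early nephron, 2 of 12 in podocytes, 2 of 11 in loop of Henle and 1 of 12 in immune cells; in distal tubule (8 settings) and mural cells (12) it did not. Median-of-ratios scaling shifted immune log2 ratios by 0.11 and those of the other classes by under 0.1. Distal tubule was not named at resolution 0.5. With doublets kept, loop of Henle gave no value, since too few WT cells were named. Few cells limit distal tubule, mural and immune ratios, and 1 library per group leaves variation between animals unmeasured.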
